A study of Mus musculus with 2 samples.

Results

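The sarcomere, the contractile unit of striated muscle, is held in register by a few very large proteins, and 9 of their genes, Ttn, Neb, Nebl, Obsl1, Speg, Cmya5, Xirp1, Xirp2 and Nrap, are described here out of the 55536 genes of the gene tables. The genes were taken by name, as titin, the nebulin family, the Xin repeat proteins, myospryn and 2 relatives of obscurin, and not by their measured values. Earlier results of these data were known when they were chosen. Total RNA had been sequenced from gastrocnemius, a fast muscle of the calf. The libraries formed 1 group of 2, from adult male mice 8 to 10 months of age, labelled as strain 5xFAD/CAST and as a cross of 5xFAD with Cast. 5xFAD mice carry transgenes driven by a neuronal promoter, CAST is an inbred strain of another mouse subspecies, and no library without the 5xFAD background was present, so no effect of genotype can be read from these values. Both libraries carry the same donor entry in the labels, which do not say whether they came from separate animals, so the spread between them may be technical, and with 1 library per side no p-value can be formed.

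Titin spans from the Z-disc to the M-band and acts as a molecular spring, while nebulin runs along the thin filament and stabilises it. Splicing of the elastic I-band segment of titin differs between heart and skeletal muscle, the heart using a short form with the N2B exon and skeletal muscle long forms of the N2A type. The remaining proteins sit at the Z-disc, the M-band, the triad or the ends of the fibre, where they guide myofibril assembly or bind membranes and signalling enzymes to the myofibril.

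The tables held 35163970 gene counts in replicate 1 and 35412240 in replicate 2. Counts are RSEM expected counts, and TPM is the deposited abundance after scaling by transcript length. The tissue label was checked against markers. Fast fibre markers, 9 genes, had median levels of 9831 TPM in replicate 1 and 9585 TPM in replicate 2, and 8 slow fibre markers had medians of 203 and 183 TPM. The 10 heart muscle genes had medians of 0.195 and 0.21 TPM, with Nppb at 0 counts in both libraries, Nppa at 3 counts in each, and Myh6 the highest at 56.5 and 56.9 TPM. In bulk RNA, fewer cells of a type and less RNA per cell cannot be told apart.

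The 9 genes together took 4002352 counts in replicate 1 and 3973530 in replicate 2, which was 11.4% and 11.2% of all gene counts (11.3% ± 0.114, SD, n = 2). Among the 22015 nuclear protein-coding genes alone their share was 14.9% and 15.0%. Ttn supplied 72.7% and 72.9% of those counts, and the gene ranked first of all nuclear protein-coding genes by mean count. A further 5 were within the first 100 by mean count: Neb at rank 5, Cmya5 at 13, Xirp2 at 19, Nrap at 38 and Speg at 87. The other 3 were far down, with Xirp1 at rank 694, Obsl1 at 3365 and Nebl at 11770. By TPM, which divides counts by the length of the transcript models, the 9 genes summed to 7339 and 6973 TPM (7156 ± 259, SD, n = 2). Ttn and Neb made up 74.9% and 75.1% of that sum. The mean TPM placed Neb at rank 17 and Ttn at rank 18 of the nuclear protein-coding genes. The levels of both depended on the length by which counts were divided, as given below.

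**Figure D1:**
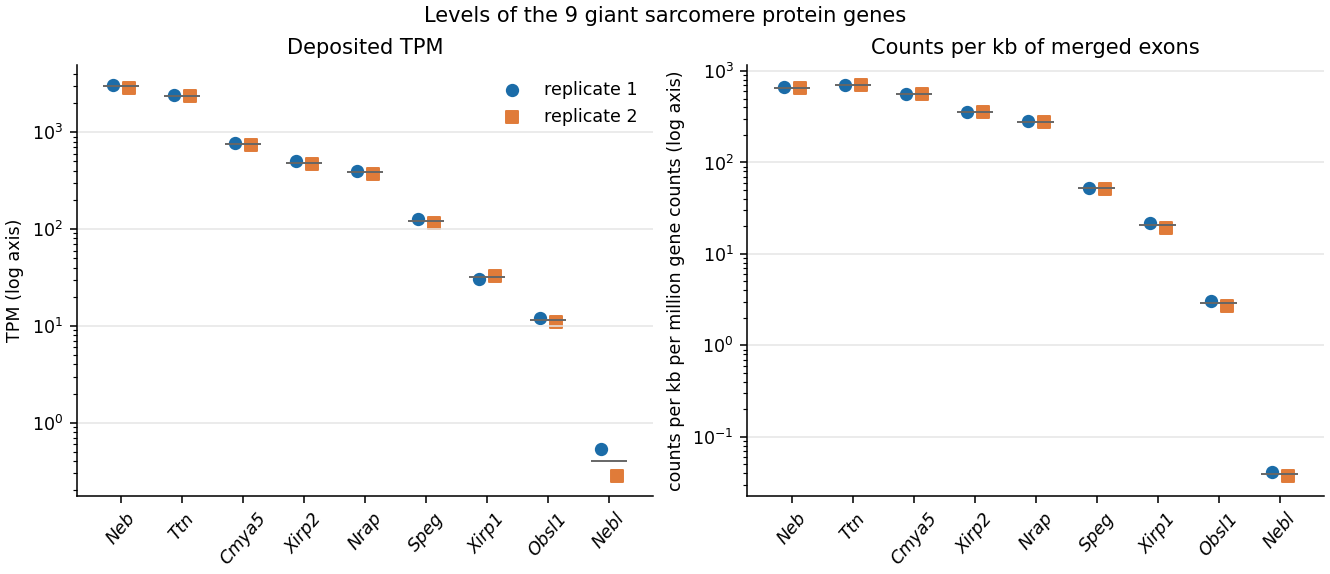
Level of each gene in replicate 1 (circles) and replicate 2 (squares), with the mean as a grey line, as deposited TPM (left) and in RSEM counts per kilobase of merged exons, scaled to 1000000 gene counts (right), both on log axes. The levels span from 0.28 TPM for Nebl to 3086 TPM for Neb, and Ttn stands above Neb in the right panel.

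The levels covered a wide range. Mean TPM ran Neb, Ttn, Cmya5, Xirp2, Nrap, Speg, Xirp1, Obsl1 and Nebl from high to low, and no pair of neighbours in that order overlapped between the 2 libraries. The narrowest gaps were Neb over Ttn, 1.2-fold by the means, and Xirp2 over Nrap, 1.26-fold. The widest was Obsl1 over Nebl, 28.6-fold, a size that rests on the 22 and 20 counts of Nebl. The same order held in a second quantification of these libraries, a deposited transcript table with the column layout of kallisto (the kallisto-layout table). There Obsl1 over Nebl was 13.8-fold, and per kilobase of merged exons it was 74.2-fold.

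Titin had the most reads of the nuclear protein-coding genes. Ttn (ENSMUSG00000051747.14) lies at chr2:76703980-76982547 on the minus strand of mm10, and its 25 transcript models together cover 116825 bases of exon. It had 2907892 counts and 2409 TPM in replicate 1 and 2895404 counts and 2369 TPM in replicate 2. That was 8.27% of all gene counts in replicate 1 (exact binomial 95% interval 8.26 to 8.28) and 8.18% in replicate 2 (8.17 to 8.19), intervals that cover counting error only. The posterior SD of the count in the deposited tables was at most 0.05 reads, that is, hardly any read was divided between Ttn and another gene. An antisense gene inside it, Gm13938, had 0 and 5 counts.

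Whether Ttn or Neb stood higher depended on the length by which counts were divided. In TPM, Neb led by 1.2-fold, and each library gave the same order. Per kilobase of merged exons and per 1000000 gene counts, Ttn had 708 and 700 counts in the 2 libraries, and Neb had 669 and 648, so that Ttn led by 1.07-fold, again with no overlap. Set over Cmya5, a gene with a single transcript model, Ttn was 3.16-fold higher in TPM and 1.26-fold higher per kilobase of merged exons, and Neb was 3.94-fold and 1.18-fold higher. The deposited mean length of a Ttn transcript was 47314 bases in replicate 1 and 45098 in replicate 2. Models that the annotation marks as incomplete at an end held 44.7% and 47.1% of the TPM of Ttn but 4.21% and 4.55% of its counts. For Neb they held 39.5% and 38.8% of TPM and 9.61% and 9.55% of counts. The choice of length scale was added after the values were seen.

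Most titin reads were placed on long models without the N2B exon. Ttn-205, of 313 exons and 33467 codons, had 666 and 614 TPM and 59.0% ± 0.733 of the counts of the gene. Ttn-204 encodes the same 33467 codons, shares 100393 of its 100404 bases with Ttn-205 and starts 2365 bases further in. It had 43.8 and 38.9 TPM in the RSEM table and 277 and 250 TPM in the kallisto-layout table. The pair together took 62.8% ± 0.875 of counts in the RSEM table and 73.4% in the kallisto-layout table. Ttn-201, of 26886 codons, holds the N2B exon of 2646 bases (chr2:76907308-76909953) and lacks 122 exons of Ttn-205 that together hold 22389 bases. It had 413 and 398 TPM and 30.1% ± 0.579 of counts by RSEM, and 244 and 251 TPM with 20.2% ± 0.81 of counts in the kallisto-layout table. Ttn-203, the longest model with 35213 codons and also with the N2B exon, had 0.04 and 0.02 TPM by RSEM and 8.65 and 9.19 TPM in the other table.

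Among models that either hold the N2B exon or span its place without it, those with it took 31.4% and 32.5% of counts by RSEM and 21.4% and 22.9% in the kallisto-layout table. The difference between the 2 quantifications was larger than that between the 2 libraries. The tables hold no counts per exon, so reads on the N2B exon itself were not measured apart from the rest of Ttn-201. Of the genes known to regulate this splicing, Rbm20, which represses titin exons in heart, had 37.7 and 32.0 TPM.

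Short models at the 5′ end and inside Ttn carried much of its TPM. Ttn-215, a 12-exon model of 2159 bases that begins at the start of Ttn-205 and lies wholly within its exons, had 607 and 602 TPM by RSEM and 252 and 269 TPM in the kallisto-layout table. Ttn-202, which ends in a last exon of 6520 bases as the short novex-3 form known in human muscle does, had 178 and 172 TPM by RSEM and 104 and 103 TPM in the kallisto-layout table. Ttn-218, Ttn-209 and Ttn-212 are incomplete models from inside the gene. Ttn-218 had 132 and 163 TPM, Ttn-209 had 134 and 151 TPM and Ttn-212 had 119 and 125 TPM by RSEM. All 3 were higher in replicate 2, while Ttn-205 was higher in replicate 1.

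The promoter of Ttn is shown because 7 of its models, with 1881 and 1801 TPM by RSEM and 1091 and 1105 TPM in the kallisto-layout table, begin within 1000 bases of it, and because it holds a match to the binding motif of MEF2, a family of transcription factors of muscle genes. The window runs from 250 bases before to 50 bases after the start, 5′ to 3′ on the minus strand of GRCm38.p6 (chr2:76982498-76982797, sequence from RefSeq), and capitals mark the MEF2 match, 166 bases before the start.
Ttn promoter: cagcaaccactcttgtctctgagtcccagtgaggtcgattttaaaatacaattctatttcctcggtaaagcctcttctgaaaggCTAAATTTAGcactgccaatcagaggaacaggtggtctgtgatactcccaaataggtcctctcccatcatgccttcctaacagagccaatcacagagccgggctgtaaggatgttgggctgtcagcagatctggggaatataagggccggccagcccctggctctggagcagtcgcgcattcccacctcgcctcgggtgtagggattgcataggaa
Windows of this kind were found for 7 of the 9 genes, 13 windows in all, with 4 each for Nebl and Speg and none for Neb and Xirp1. Windows 2 and 3 of Nebl had no model within 1000 bases, and the models at window 4 had 0 TPM. The 13 windows are thus not 13 separate genes, and no enrichment was tested. The MEF2 motif was searched on both strands and lay in 3 of the 13 windows, those of Ttn, Xirp2 and the first start of Speg, against 3.19% of all 32851 promoter windows of the table. CANNTG, the E-box letters bound by MyoD-type factors, lay in 12 of 13 windows against 72.3% of all. CATTCC, the letters of the MCAT element, lay in 4 of 13 against 14.7%, and TATAAA, which can overlap a MEF2 match, lay in 0 of 13 against 13.6%. These are matches of letters and describe no binding.

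Nebulin had the highest TPM. Neb (ENSMUSG00000026950.17) lies at chr2:52136647-52378474 on the minus strand with 13 models. It had 625733 counts and 3086 TPM in replicate 1 and 610315 counts and 2871 TPM in replicate 2. The kallisto-layout table gave 2401 and 2335 TPM. Neb-202, a model of 157 exons and 7152 codons, took 60.1% ± 0.292 of counts by RSEM and 64.1% ± 1.29 in the kallisto-layout table. Its TPM was 659 and 601 by RSEM and 619 and 606 in the kallisto-layout table, so the ranges of this full-length model in the 2 tables overlapped. Neb-203, of 6909 codons, had 165 and 155 TPM by RSEM and 157 and 130 TPM in the other table.

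The leading model of Neb by TPM was not the same in the 2 quantifications. RSEM gave 689 and 684 TPM to Neb-204, a 1000-base model with no coding sequence, and 0 and 0.38 TPM to Neb-212, a coding model of 1004 bases marked as incomplete. The kallisto-layout table gave Neb-212 185 and 226 TPM, while Neb-204 had 37.6 TPM in replicate 1 and near 0 in replicate 2. The models share 918 bases of exon, and the same number of bases of Neb-204 lies within Neb-202. Reads from this 5′ region thus match several models, and Neb-204 with its 23.1% ± 1.06 of TPM held 2.64% ± 0.146 of counts.

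Neb models also differed in coding exons. Neb-202 holds a block of 4 exons that Neb-203 lacks, exons 82 to 85 with 729 bases. Its share was read at 1 exon of the block, of 204 bases (chr2:52226443-52226646). Among models that hold this exon or span its place, those with it took 81.6% and 81.1% of counts by RSEM. In the kallisto-layout table they took 81.5% and 83.9%. Near the 3′ end, Neb-202 and Neb-203 each hold a 93-base exon of 31 codons that the other lacks. These are exon 148 of Neb-202 (chr2:52153056-52153148) and exon 143 of Neb-203 (chr2:52156355-52156447), both on the minus strand of mm10. The pair is shown because it is the choice of coding sequence that separates the 2 long models near the Z-disc end of the protein, and capitals mark the bases that differ.
Exon 148 of Neb-202: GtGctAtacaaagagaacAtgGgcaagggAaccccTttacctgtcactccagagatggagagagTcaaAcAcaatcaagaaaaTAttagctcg
Exon 143 of Neb-203: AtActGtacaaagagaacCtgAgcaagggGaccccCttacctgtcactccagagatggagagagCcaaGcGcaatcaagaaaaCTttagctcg
The exons carry the same base at 81 of 93 positions (87.1%). Models with the exon of Neb-202 took 66.6% and 66.1% of counts, against models that span its place without it, by RSEM, and 68.8% and 70.9% in the kallisto-layout table. Models with the exon of Neb-203 took 30.0% and 30.4% by RSEM and 28.6% and 26.4% in the kallisto-layout table. By TPM, which does not weight long models, models with the exon of Neb-202 took 46.2% and 45.1% by RSEM and 49.9% and 50.6% in the kallisto-layout table. Models with the exon of Neb-203 took 31.4% and 31.3% of TPM by RSEM and 30.9% and 28.9% in the kallisto-layout table. The larger share of the exon of Neb-202 over models without it thus held by counts and not by RSEM TPM.

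In 4 genes the tables divided reads among models more differently than the libraries did. Between the tables, 23.9% of the TPM of Ttn lay on other models, against 3.04% between the libraries by RSEM. The same shares were 23.7% against 2.17% for Neb, 29.2% against 4.35% for Speg, and 14.3% against 5.56% for Nrap. For Obsl1 and Nebl the libraries differed more, with 8.67% between the tables against 20.9% between the libraries by RSEM for Obsl1 and 30.2% against 55.2% for Nebl. Between the libraries in the kallisto-layout table the shares were 22.6% for Obsl1 and 59.7% for Nebl. Xirp1 also differed more between the libraries by RSEM, with 22.9% against 11.5% between the tables. In the kallisto-layout table Xirp1-201 held 100% of its TPM.

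**Figure D2:**
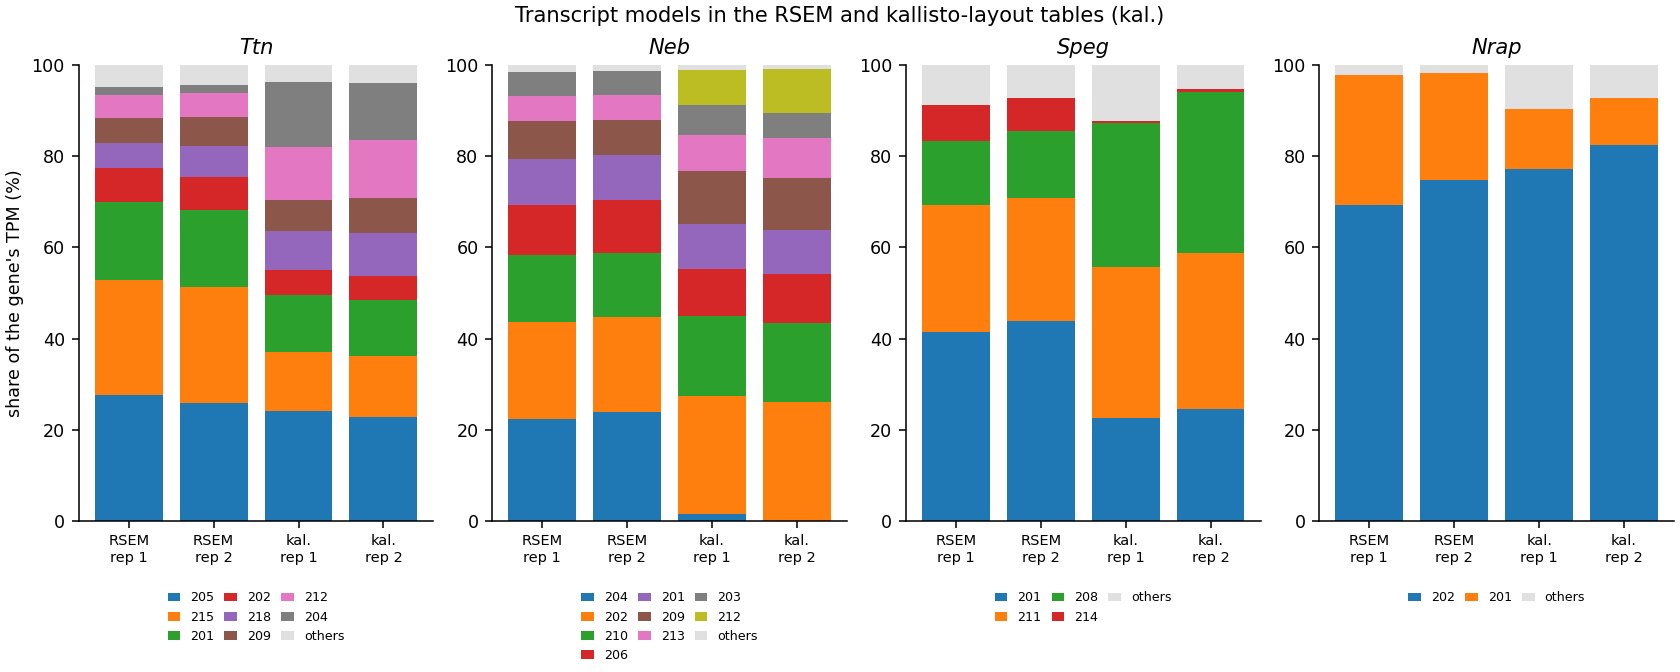
Share of each gene's TPM (%) by transcript model for Ttn, Neb, Speg and Nrap, with the RSEM tables of replicates 1 and 2 left of the kallisto-layout tables of replicates 1 and 2. Models with a mean share of at least 5% in either table have a colour of their own, and the rest are light grey (others). Neb-204 (blue, lowest in the Neb panel) holds 23.1% of the TPM of Neb by RSEM and 0.783% in the kallisto-layout table.

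The nebulin relatives Nrap and Nebl stood far apart in TPM, in the middle and at the low end of the 9 genes. Nrap encodes nebulin-related anchoring protein, which takes part in myofibril assembly and lies at the myotendinous junction in mature muscle. Nrap (ENSMUSG00000049134.15, chr19:56320035-56390037, minus strand) had 54494 counts and 399 TPM in replicate 1 and 53917 counts and 371 TPM in replicate 2. The kallisto-layout table gave 368 and 353 TPM. Nebl encodes nebulette, a short nebulin relative of the heart, and from an upstream start a small LIM protein without most nebulin repeats. Nebl (ENSMUSG00000053702.16, chr2:17343909-17731464, minus strand) had 22 and 20 counts, or 0.53 and 0.28 TPM. The ranges of the 2 genes lay far apart, and the few reads of Nebl over 13 models leave its TPM imprecise. The small LIM form, Nebl-201 with 270 codons, took 18.9 and 13.5 of those reads, and nebulette itself, Nebl-202 with 1014 codons, took 0 and 4.04. Nebl-209, a 335-base model, held 73.1% of the TPM of Nebl in replicate 1 and 17.9% in replicate 2 from 2.31 and 0.29 reads.

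Nrap was read mainly from models that include its exon 12. Nrap-202 (1728 codons) had 277 and 278 TPM, and Nrap-201 (1693 codons), which lacks that exon and otherwise lies within Nrap-202, had 114 and 86.8 TPM. Exon 12 has 105 bases or 35 codons (chr19:56374364-56374468, minus strand of mm10) and is shown because it is the only whole exon by which these models differ.
Exon 12 of Nrap-202: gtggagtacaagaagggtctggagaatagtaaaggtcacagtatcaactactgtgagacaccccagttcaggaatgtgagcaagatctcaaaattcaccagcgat
Models with the exon took 70.4% and 75.6% of counts by RSEM (73.0% ± 3.72) and 80.7% and 84.7% in the kallisto-layout table (82.7% ± 2.88). Replicate 2 had the higher share in both tables. The shares of the 2 tables did not overlap.

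The Xin repeat genes stood far apart. Xirp1 and Xirp2 encode actin-binding proteins of the intercalated discs of heart and the myotendinous junctions of skeletal muscle, and Xirp1 is also known to appear in damaged fibres. Xirp2 (ENSMUSG00000027022.13, chr2:67446002-67526614, plus strand) had 151756 counts and 500 TPM in replicate 1 and 151460 counts and 469 TPM in replicate 2. Xirp1 (ENSMUSG00000079243.3, chr9:120013755-120023598, minus strand) had 4483 counts in replicate 1 and 3978 in replicate 2. Its TPM was 30.6 and 32.7, so counts were higher in replicate 1 and TPM in replicate 2. In replicate 2, RSEM placed 45.0 reads on Xirp1-202, a 321-base incomplete model within Xirp1-201, and those reads made 22.9% of the TPM of the gene there. In replicate 1 that model had 0 reads, and in the kallisto-layout table it had 0 in both libraries, with 27.3 and 23.8 TPM for the gene. Xirp1 lies within the span of Cx3cr1 on the same strand, which had 5 and 4 counts.

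Xirp2 has 2 models with the same start, and RSEM placed every read on Xirp2-202 (3283 codons) and 0 on Xirp2-201 (3784 codons). The kallisto-layout table gave Xirp2-201 1.94 and 2.86 of its reads. Apart from the ends, the models differ by 16 bases at the beginning of exon 8, which only Xirp2-202 holds. They are shown in capitals, followed by 12 further bases of the exon in lower case (chr2:67519220-67519247, plus strand of mm10).
Start of exon 8 of Xirp2-202: AAACTGTTGGTCCAAGacaaggaaattt
The posterior SD of the count was 899 reads on each model in replicate 1 and 838 in replicate 2, which is small beside the 151756 and 151460 reads. The promoter of Xirp2 is shown as the second window with a MEF2 match, in capitals, 74 bases before the start (chr2:67445752-67446051, plus strand of GRCm38.p6, from RefSeq).
Xirp2 promoter: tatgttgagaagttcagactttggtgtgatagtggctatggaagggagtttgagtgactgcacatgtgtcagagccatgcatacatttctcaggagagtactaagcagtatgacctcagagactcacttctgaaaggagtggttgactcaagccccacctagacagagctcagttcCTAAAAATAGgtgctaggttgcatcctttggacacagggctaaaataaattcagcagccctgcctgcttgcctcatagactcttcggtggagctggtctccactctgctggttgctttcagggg
Its letters in that match are the same as those in the first promoter of Speg.

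Myospryn came next after nebulin and titin in TPM. Cmya5 encodes myospryn, a large protein related to the TRIM family that binds desmin and lies at costameres and junctional membranes. Cmya5 (ENSMUSG00000047419.5, chr13:93040713-93144724, minus strand) had 233405 counts and 777 TPM in replicate 1 and 234266 counts and 734 TPM in replicate 2. With a single model of 13 exons and 3676 codons, its level did not depend on how reads were divided among transcripts, and the kallisto-layout table gave 720 and 705 TPM. Antisense gene A630019I02Rik inside it had 19 and 24 counts.

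The relatives of obscurin stood lower. Speg encodes a kinase of the myosin light chain kinase family that lies at the triad and binds the phosphatase Mtm1. Speg (ENSMUSG00000026207.16, chr1:75375297-75432320, plus strand) had 23648 counts and 126 TPM in replicate 1 and 23357 counts and 115 TPM in replicate 2. Obsl1 encodes obscurin-like 1, which links titin and myomesin at the M-band and in human cells is part of the 3M complex. Obsl1 (ENSMUSG00000026211.17, chr1:75479310-75506452, minus strand) had 919 counts and 12.1 TPM in replicate 1 and 813 counts and 11.1 TPM in replicate 2. Its leading model, Obsl1-202 with 1804 codons, held 69.9% ± 2.08 of counts by RSEM and 69.0% ± 7.48 in the kallisto-layout table. The gene Tmem198 overlaps Obsl1 on the opposite strand and had 0 counts in both libraries.

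Speg has 4 start sites with a promoter window, and the weight of each differed between the tables. The first start carries Speg-201, the long model of 3262 codons, with 52.2 and 50.4 TPM by RSEM and 31.6 and 31.2 TPM in the kallisto-layout table. The second, 6817 bases downstream, carries short models such as Speg-208. They had 30.8 and 26.5 TPM in sum by RSEM and 47.5 and 46.9 TPM in the kallisto-layout table. Those short models held only 1.65% and 1.56% of the counts of the gene by RSEM, and 1.45% and 1.56% in the kallisto-layout table. The third start, 10313 bases downstream, carries Speg-211, a long model marked as incomplete, and summed to 35.9 and 31.4 TPM by RSEM and 46.8 and 43.9 TPM in the other table. The fourth, 24788 bases downstream, carries 113-codon models of the kind known as APEG-1 in arterial smooth muscle, which summed to 6.33 and 6.15 TPM by RSEM and 4.00 and 5.36 TPM in the other table. Speg-201 held 61.5% ± 1.63 of counts by RSEM and 42.3% ± 0.813 in the kallisto-layout table, where Speg-211 led with 55.6% ± 0.783. The 2 models share 9818 of the 9885 bases of Speg-211. The fourth start was the lowest in both libraries of both tables.

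**Figure D3:**
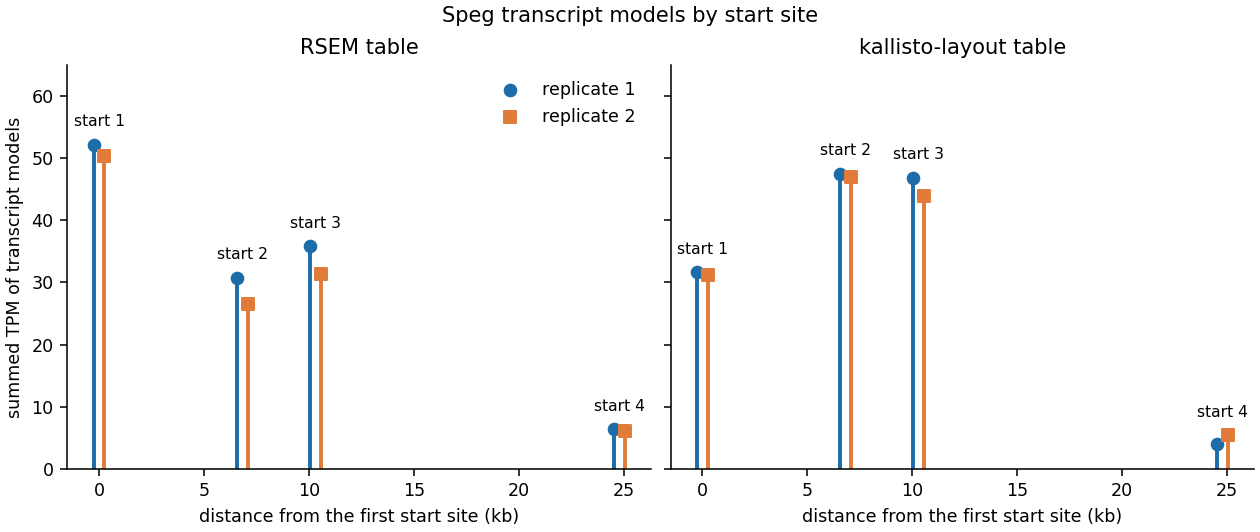
Summed TPM of the Speg models that begin within 1000 bases of each of 4 start sites, by distance from the first start site (kb), in replicate 1 (circles) and replicate 2 (squares, set slightly aside), from the RSEM table (left) and the kallisto-layout table (right). The first start leads on the left with 52.2 and 50.4 TPM, and the second leads on the right with 47.5 and 46.9 TPM. That lead on the right comes from short models with 1.45% and 1.56% of the counts of Speg.

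The promoters of the first start and the third start of Speg are shown because they belong to the long models that exchange the lead between the tables. Both are on the plus strand of GRCm38.p6, from RefSeq, at chr1:75375047-75375346 and chr1:75385360-75385659. Capitals mark the MEF2 match of the first, 51 bases before the start, and the third holds none.
Speg promoter of the first start: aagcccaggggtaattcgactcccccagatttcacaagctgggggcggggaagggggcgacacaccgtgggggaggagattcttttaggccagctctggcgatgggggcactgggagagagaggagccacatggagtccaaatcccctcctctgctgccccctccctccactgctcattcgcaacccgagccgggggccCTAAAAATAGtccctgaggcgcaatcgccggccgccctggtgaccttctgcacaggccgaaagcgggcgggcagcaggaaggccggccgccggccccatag
Speg promoter of the third start: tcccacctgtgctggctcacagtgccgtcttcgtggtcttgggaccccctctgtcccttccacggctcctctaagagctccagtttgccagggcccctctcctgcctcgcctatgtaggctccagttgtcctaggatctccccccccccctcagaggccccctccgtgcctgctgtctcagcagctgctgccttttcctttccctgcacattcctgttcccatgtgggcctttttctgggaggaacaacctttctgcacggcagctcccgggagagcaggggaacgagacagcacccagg
The window of the third start holds CANNTG 4 times and CATTCC 1 time, and that of the first holds CANNTG 1 time and CATTCC 0 times.

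For these genes the libraries lay close together. Ratios were taken from counts after TMM scaling, as replicate 1 over replicate 2 on the log2 scale, with exact 95% intervals for counting error. All 9 genes averaged at least 10 counts, and 0 of them had a log2 ratio beyond 0.32 in either direction. The share over the 14361 genes with such counts was 21.2%. At 2-fold the count was again 0 of 9, against 2.89% of all. Among the 9741 genes averaging at least 100 counts, as all members but Nebl did, 7.63% passed 0.32 and 0.298% passed 2-fold. At such shares 0 of 9 does not set these genes apart. In absolute size the ratio of Neb exceeded that of 7.87% of all genes tested, the lowest of the 9. The highest were Obsl1, at 50.2%, and Xirp1, at 49.0%. The median log2 ratio was -0.03 over the 9 genes and 0.00 over all genes tested.

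Replicate 1 was slightly below replicate 2 for 6 of the genes, with intervals below 0. The log2 ratio was -0.05 for Ttn (interval -0.05 to -0.04), -0.02 for Neb (-0.02 to -0.01), -0.06 for Cmya5 (-0.07 to -0.05) and -0.05 for Xirp2 (-0.06 to -0.04). For Nrap it was -0.04 (-0.05 to -0.02), and for Speg it was -0.03 (-0.06 to -0.01). Xirp1 alone had an interval above 0, with 0.12 (0.06 to 0.18). The intervals of Obsl1, 0.12 (-0.01 to 0.26), and of Nebl, 0.08 (-0.86 to 1.04), held 0. With ratios this near 0 the sign followed the scaling: by library totals, which moved the median of all genes to 0.06, all 9 ratios were above 0, and by deposited TPM, which moved that median to 0.13, the 8 genes other than Xirp1 were above 0. By spike-in totals, with a median of -0.09 over all genes, the 9 ratios ran from -0.15 for Cmya5 to 0.03 for Obsl1.

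**Figure D4:**
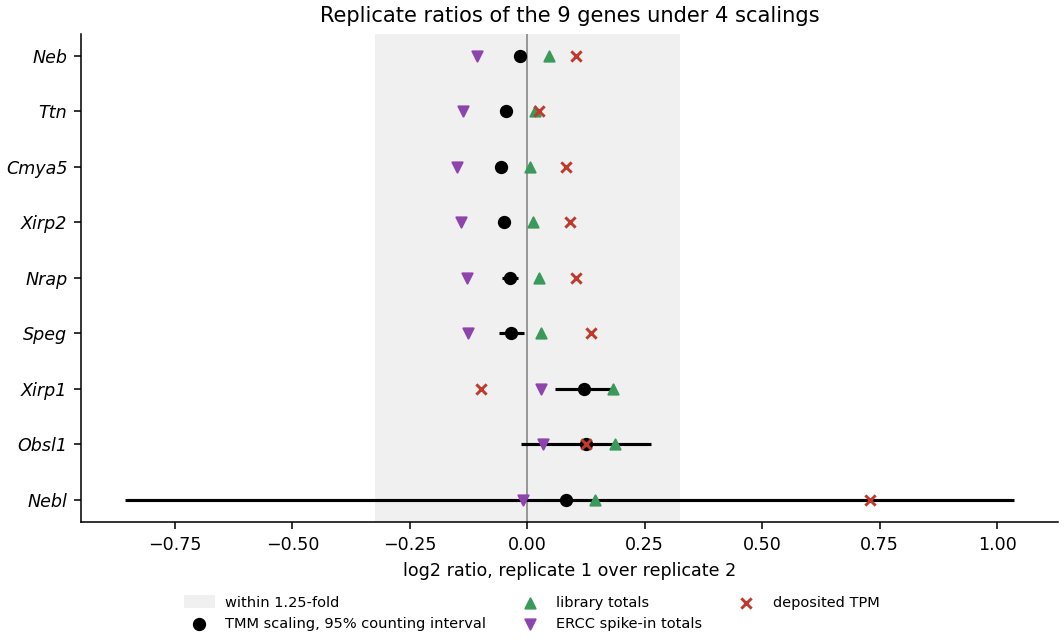
Log2 ratio of replicate 1 over replicate 2 for the 9 genes after TMM scaling (black points, with exact 95% intervals for counting error) and under 3 other scalings (coloured marks). The grey band marks 0.32 either way, and the mark of Nebl by deposited TPM, at 0.73, is the only one outside it.

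Markers of some other cells of the tissue passed that margin. Of 5 endothelial markers 3 were higher in replicate 1 by at least 0.32, namely Kdr (0.79), Emcn (0.60) and Cdh5 (0.42), and 0 were lower, and their TPM summed to 48.0 in replicate 1 and 33.0 in replicate 2. Of 5 fibroblast markers 2 were lower in replicate 1 by that margin, Col1a1 (-0.33) and Col1a2 (-0.36), with sums of 483 and 469 TPM. None of the 9 fast and 8 slow fibre markers passed 0.32, beside 7.63% of all genes averaging at least 100 counts. The part of these cells in the ratios of the 9 genes was not tested.

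RNA of genes listed here as partners of these giants covered a wide range of levels, and binding of their proteins was not examined. The list of 54 partner genes, drawn up with earlier results of these libraries known, was found whole in the annotation, and 51 of its genes reached 1 TPM in both libraries. The other 3, named after their values were seen, were Was with 0.23 and 0.20 TPM, Cdh2 with 0.43 and 0.30 TPM and Ccdc8 with 0.42 and 0.54 TPM. The share of all genes that reached 1 TPM is not given here, so 51 of 54 does not set the list apart. For scale, Nebl with a mean of 0.405 TPM ranked 11710 of the 22015 nuclear protein-coding genes by TPM. The median of the list was 96.5 TPM in replicate 1 and 81.7 TPM in replicate 2. The highest were Acta1, skeletal actin, with 18634 and 18372 TPM, Actn3, the fast-fibre alpha-actinin of the Z-disc, with 4053 and 3836 TPM, and Mybpc2, fast myosin-binding protein C, with 2411 and 2322 TPM. Tcap, which caps the Z-disc end of titin, had 2181 and 2063 TPM, and Myoz1, a calcineurin-binding Z-disc protein, had 1441 and 1359 TPM. In both libraries Tcap was below Ttn by deposited TPM. The level of Ttn depended on the length scale, and this order was not checked on another scale. Of the 54 genes, 1 was higher and 3 were lower in replicate 1 by at least 0.32, beside 21.2% of all genes in either direction, and 0 passed 2-fold. The higher one was Lasp1 (0.38, interval 0.15 to 0.61), a small LIM protein with nebulin repeats. The lower ones were Fhl2 (-0.38, -0.90 to 0.13), Cul7 (-0.49, -0.82 to -0.16) and Ccdc8 (-0.48, -1.04 to 0.06). All were named after their values were seen. Fhl2, with 59 and 74 counts, and Ccdc8, with 51 and 69 counts, had intervals that held 0. The median log2 ratio of the list was -0.01.

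The 12 splicing regulators of the second list were all measured above 1 TPM in both libraries, with a median of 37.0 and 31.3 TPM. The share of all genes above 1 TPM is not given here, so this does not set the 12 apart. Mbnl1 had 268 and 254 TPM, Rbfox1 120 and 106 TPM, Qk 111 and 110 TPM, Mbnl2 102 and 87.1 TPM, and Rbm24 97.7 and 84.2 TPM. These RNA-binding proteins are known to set muscle splicing. None of the 12 passed 0.32 between the libraries, beside 7.63% of all genes averaging at least 100 counts, and their median log2 ratio was 0.08.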

How the data were processed

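Gastrocnemius RNA of 5xFAD/CAST mice was measured in 2 libraries forming 1 group. Per the labels' protocols, 300 ng of total RNA with ERCC spike-ins entered a directional, ribosomal-RNA-reduced library. The deposited gene and transcript tables in RSEM layout, made by the authors on mm10 with annotation M21, give expected counts and TPM, with the share of the gene's TPM in percent. They also hold the authors' posterior SD of each count and interval bounds, deposited as scores in counts or TPM. The deposited kallisto-layout tables give estimated counts and TPM per transcript, summed here per gene. The aligner, program versions and strand setting of the counting were not given in the sources used here. CAST alleles were counted on mm10, which comes from another strain, and its effect was not tested.

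Expected counts were rounded for ratios, with edgeR 4.0.16 TMM scaling set on genes averaging at least 10 counts, a prior of 0.5 counts and exact binomial 95% intervals. Reads are not independent molecules, so intervals cover counting error only. Spike-ins and short numbered sequences were left out of totals (0.527% and 0.474% of counts). The ratio step was tested on simulated data. Counts per kilobase used merged exons of all models of a gene in M21. Transcript names, exons and codons are those of M21. Sequences of exons came from the M21 transcripts and promoters from RefSeq.

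The 9 genes and all lists were chosen with earlier results of these data known. The named genes are these 9, per gene up to 6 transcripts with a mean share of at least 5%, and from the partner and splicing lists the 5 of highest mean TPM and any past 2-fold that averaged at least 100 counts. Ttn-202, Ttn-203, Ttn-209, Neb-203, Nebl-202, Neb-212, Xirp1-202, Xirp2-201, Rbm20 and single marker genes were named after their values were seen. Alternatives were DESeq2 1.42.0 size factors, library, spike-in and TPM scaling, the kallisto-layout table, posterior mean TPM, other count minimums, another prior and each library alone. The analysis ran in R 4.3.3 and in Python 3.11.15 with scipy 1.17.1 and pandas 2.3.3.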

Additional observations from a re-analysis of the deposited data

How the results depend on the processing

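The summed level of the 9 genes was 7156 TPM, and it was 6043 TPM from the kallisto-layout table, beyond the SD of 259. Rescaled over nuclear protein-coding genes it was 15976 TPM, a change of denominator that multiplies every such gene of a library by the same factor. By posterior mean TPM it was 6980, and either library alone gave 6973 to 7339. The share of counts, 11.3%, was 11.7% by the kallisto-layout table and 15.0% over nuclear protein-coding genes only, with 11.2% to 11.4% for either library alone. The number of genes with a log2 ratio of at least 0.32 between replicates, 0, became 1 by deposited TPM, where Nebl had a log2 ratio of 0.73, and was 0 under the other 6 alternatives. The number of genes with the same leading model in both tables was 7 of 9 by TPM and 8 of 9 by counts. The log2 ratio of the level of Ttn over that of Neb was -0.32 by TPM, -0.26 by kallisto-layout TPM and 0.095 per kilobase of merged exons, which reversed the order; these 2 alternatives were chosen after the data were seen, and the cause was not tested beyond the change of length itself. The level of each gene moved by more than its SD in the kallisto-layout table for 9 of 9, and by posterior mean TPM for 2 of 9. Over nuclear protein-coding genes it also moved for 9 of 9, which follows from the change of denominator. No paired analysis was possible because the libraries form 1 group. Low counts limited Nebl, at 22 and 20 reads. Transcript shares of Ttn, Neb, Speg and Nrap differed more between the tables than between the libraries.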
